A study of Mus musculus with 8 samples.

Results

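Aminoacyl-tRNA synthetases are the enzymes that attach each amino acid to its tRNA. The set described here was taken from the platform annotation alone: every probe set whose single gene symbol is that of a synthetase, or of the scaffold proteins Aimp1 and Aimp2. This gave 75 of the 45037 probe sets that are not array controls, annotated to 37 of 18193 genes. Of these, 40 probe sets belong to 19 genes of cytoplasmic synthetases, 32 to 16 genes of mitochondrial synthetases (symbols ending in 2) and 3 to the scaffolds.

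Messenger RNA was taken from polysomes, the runs of ribosomes that carry mRNAs under translation, in mouse eggs and one-cell embryos. One group was 4 independent batches of oocytes at metaphase II (MII), the arrested egg before fertilization. The other was 4 independent batches of embryos at the one-cell stage that had received α-amanitin, which blocks RNA polymerase II and so new mRNA synthesis. Each batch pooled 160 to 500 eggs or embryos, and each RNA was amplified by in vitro transcription in 2 rounds, labelled with biotin and read on 1 array. The labels give no strain, age, hormone treatment, dose or time after fertilization. Stage and α-amanitin treatment changed together and cannot be told apart. Each array pooled many eggs, so fewer eggs with an mRNA and less of it per egg cannot be told apart either, nor can the amount of an mRNA and its loading onto ribosomes, since total mRNA was not analysed here.

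In the cytoplasm the charged tRNAs are handed to elongation factor eEF1A, which brings them to the ribosome. Mitochondria translate their own few mRNAs with a separate set of synthetases, which are encoded in the nucleus, made in the cytoplasm and imported; the genes Gars and Kars each give both the cytoplasmic and the mitochondrial enzyme. Several cytoplasmic synthetases sit together in the multi-synthetase complex, held by the non-catalytic proteins Aimp1, Aimp2 and Eef1e1. Eggs and early embryos translate from stored maternal mRNA, so polysomes show which stored mRNAs are in use. When amino acids run short, uncharged tRNA activates the kinase Gcn2 (gene Eif2ak4), and the transcription factor Atf4 then raises many synthetase genes through a promoter element that it binds with C/EBP factors.

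That element is shown here because it is the known route by which Atf4 acts on synthetase genes, and those that hold it can be read beside their values. Promoter windows of 250 bases before to 50 bases after the annotated start site (RefSeq, GRCm38.p6) were given for 28 of the 37 genes. The letters TGATGNAA, searched on both strands, were found in 5 of 12 cytoplasmic genes, 0 of 14 mitochondrial genes and 0 of 2 scaffold genes, against 4.51% of 27025 genes. Each line below gives 30 bases, 5′ to 3′ on the strand of the gene, with the element, or its reverse complement, in capitals. Each is the match nearest the start site.
Yars, chr4:129189895-129189924, plus strand: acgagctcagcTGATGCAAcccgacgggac
Gars, chr6:55037960-55037989, plus strand: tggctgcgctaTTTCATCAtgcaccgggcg
Aars, chr8:111033840-111033869, plus strand: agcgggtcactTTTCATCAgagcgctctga
Iars, chr13:49682126-49682155, plus strand: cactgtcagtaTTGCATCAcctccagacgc
Tars, chr15:11399655-11399684, minus strand: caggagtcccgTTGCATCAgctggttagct
The first capital lies 30 bases before the start site in Gars and 15 bases before it in Tars. It is base 4 after the start in Yars, base 8 in Iars and base 10 in Aars. A match to these letters is a description of the promoter, not a binding site.

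Signals are the linear intensities deposited by the authors, in arbitrary units, one per probe set and array. Their mean without the lowest and highest 2% was 150.0 on each of the 8 arrays, so they stand relative to the array's total. A probe set was tested if it lay above its array's median on at least 4 of the 8 arrays. Each change is the log2(intensity + 10) of one-cell embryos minus that of MII oocytes, with the standard error (SE) from limma. The offset makes the changes of dim mRNAs look smaller than they were. A probe set passed at a two-sided limma p, adjusted by Benjamini-Hochberg over the 23336 probe sets tested, under 0.05, and rose and fell are used below for those that passed. A gene is given by its brightest tested probe set, and signals of different probe sets are not set against each other.

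One-cell array 1 stood apart. Its median signal was 71.8 against 26.9 to 37.9 on the other arrays, and its 18 hybridization controls averaged 14879 (geometric mean), where the remaining one-cell arrays gave 857 to 3718 and MII arrays 905 to 1364. All 13 oocyte markers on the array passed the filter, and their summed signal was 82531 to 111164 on MII arrays and 48092 to 74861 on one-cell arrays. Of the cumulus and granulosa markers 7 of 12 passed, with sums of 480 to 649 on MII arrays and 427 to 1599 on one-cell arrays, Cyp11a1 was separate, at 25.5 to 45.1 in oocytes and 45.5 to 209.4 in embryos, and Amh lay below the median on every array. Of the sperm markers 4 of 9 passed, with sums of 164 to 293 and 193 to 567. The highest one-cell sum was that of array 1 for the cumulus and granulosa markers and for the sperm markers. Prm2 was at 15.7 to 46.1 in oocytes and 80.3 to 245.9 in embryos, and Akap4 at 61.8 to 106.9 and 6.1 to 25.9, while Tnp1, Tnp2, Smcp and Pgk2 lay below the median on every array. The part of these other cells in the results was not tested.

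Polysomal mRNA of several synthetases was higher in one-cell embryos than in eggs, and that of 1 was lower. Of the 47 member probe sets tested, 17 rose, against a background of 19.3% of all probe sets tested, and 1 fell, against 12.8%. The remaining 29 did not pass. Of the 17 that rose, 7 lay above the array median on fewer than 4 MII arrays. They were 1 probe set each of Aars, Eprs, Hars, Sars, Pars2, Rars2 and Aimp1, and the size of their rises rests on dim oocyte signals. The groups of 4 arrays did not overlap, with the one-cell arrays higher, in 18 of the 47 (background 19.3%), and with the one-cell arrays lower in 3 (background 13.3%). The median change was 0.42 for the members and 0.17 for all probe sets tested. By gene, 9 of 26 rose (background 20.1%) and 1 fell (background 14.7%). The split between higher and lower probe sets was 13 and 3 after quantile normalization and 14 and 1 with each array centred on its median, where the median change of all probe sets tested was -0.12 and -0.15.

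Serine, alanine and glutamine enzymes showed the largest rises among the cytoplasmic genes. Sars, which charges serine tRNA and also the selenocysteine tRNA, had signals of 89.1, 138.2, 106.9 and 170.9 on the MII arrays and 2045.1, 994.6, 1233.5 and 1263.8 on the one-cell arrays. The lowest one-cell array was above the highest MII array several times over. The change was 3.34 ± 0.30 (SE, 4 arrays per group, limma adjusted p = 9.14e-07), or 11-fold between the means. Aars, the alanine enzyme with a match to the element in its window, read 67.6, 121.6, 47.3 and 63.7 in oocytes and 530.9, 540.2, 554.8 and 508.8 in embryos. The embryo arrays lay within a narrow band far above all oocyte arrays, and the change was 2.75 ± 0.30 (limma adjusted p = 4.61e-06). Qars, the glutamine enzyme of the multi-synthetase complex, read 215.2, 428.8, 223.5 and 284.1 in oocytes and 1902.2, 1807.2, 1452.5 and 2067.9 in embryos. Its groups were far apart too, with a change of 2.65 ± 0.29 (limma adjusted p = 4.61e-06).

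For these 3 genes every other tested probe set rose as well. The second probe set of Sars changed by 3.84 ± 0.48 and that of Aars by 2.00 ± 0.35. The others of Qars changed by 2.20 ± 0.27 and 1.66 ± 0.34. Rars, which charges arginine tRNA and also sits in the complex, has 1 tested probe set, with signals of 123.4, 126.8, 119.9 and 108.6 in oocytes and 242.9, 571.1, 697.9 and 453.6 in embryos. All embryo arrays were above all oocyte arrays, array 1 being the lowest of them, and the change was 1.86 ± 0.32 (limma adjusted p = 0.000322).

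Tars, the threonine enzyme, was the only member to fall with the deposited scaling. Its signals were 964.7, 391.8, 674.8 and 417.2 on the MII arrays and 191.5, 365.2, 287.0 and 235.9 on the one-cell arrays. The groups were separate, but the lower oocyte arrays came close to the highest embryo array. The change was -1.09 ± 0.33 (limma adjusted p = 0.0170). The adjusted p was 0.0723 without MII array 1 and 0.0557 without MII array 3, the brightest oocyte arrays, with changes of -0.85 and -1.02.

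The scaffolds of the multi-synthetase complex all rose. Aimp2, which binds the lysine enzyme and others in the complex, read 163.7, 169.6, 126.0 and 152.5 in oocytes and 389.1, 950.6, 583.2 and 638.0 in embryos. The groups were well apart, with a change of 1.93 ± 0.30 (limma adjusted p = 0.000121), and its second probe set changed by 1.08 ± 0.36 (adjusted p = 0.0296). Aimp1, which binds tRNA and holds the arginine and glutamine enzymes, read 37.8, 3.9, 2.7 and 6.9 in oocytes and 99.0, 42.6, 44.8 and 35.8 in embryos. MII array 1 was above the lowest embryo array, and only that oocyte array was above its median signal. The change was 1.66 ± 0.55 (limma adjusted p = 0.0284). Its adjusted p was above 0.05 without MII array 2, 3 or 4 or without one-cell array 1 or 3, between 0.0507 and 0.0816, as it was after quantile normalization (0.0617) and centring (0.0787). The second Aimp2 probe set was likewise above 0.05 in both of these settings (0.363 and 0.242) and with MII array 1, 3 or 4, or one-cell array 2 or 3, left out (0.0521 to 0.118).

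Eef1e1, the remaining scaffold, is no member by symbol and was looked up after its value had been seen. Its signals were 297.8, 138.9, 330.1 and 260.9 in oocytes and 433.8, 922.8, 797.4 and 469.9 in embryos. All embryo arrays were higher, with a change of 1.31 ± 0.34 (limma adjusted p = 0.00645, and 0.161 with arrays centred on their medians). Among the 8 tested member genes of the complex, 4 rose (Qars, Rars, Aimp1 and Aimp2; background 20.1% of genes) and 0 fell (background 14.7%), with a median change of 1.00. The complex members Kars, for lysine (0.34 ± 0.29), Lars, for leucine (0.10 ± 0.33), Iars, for isoleucine (-0.27 ± 0.27), and the brightest probe set of Eprs, for glutamate and proline (-0.63 ± 0.30), did not pass. Outside the complex, 2 of 10 cytoplasmic synthetase genes rose and 1 fell, against the same backgrounds, with a median of 0.07, and all 12359 genes had a median of 0.16. The 8 complex genes include the scaffolds Aimp1 (1.66) and Aimp2 (1.93), while the 10 genes outside are synthetases only. The medians 1.00 and 0.07 are thus of unlike sets, and the difference between complex and other genes was not tested.

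**Figure D1:**
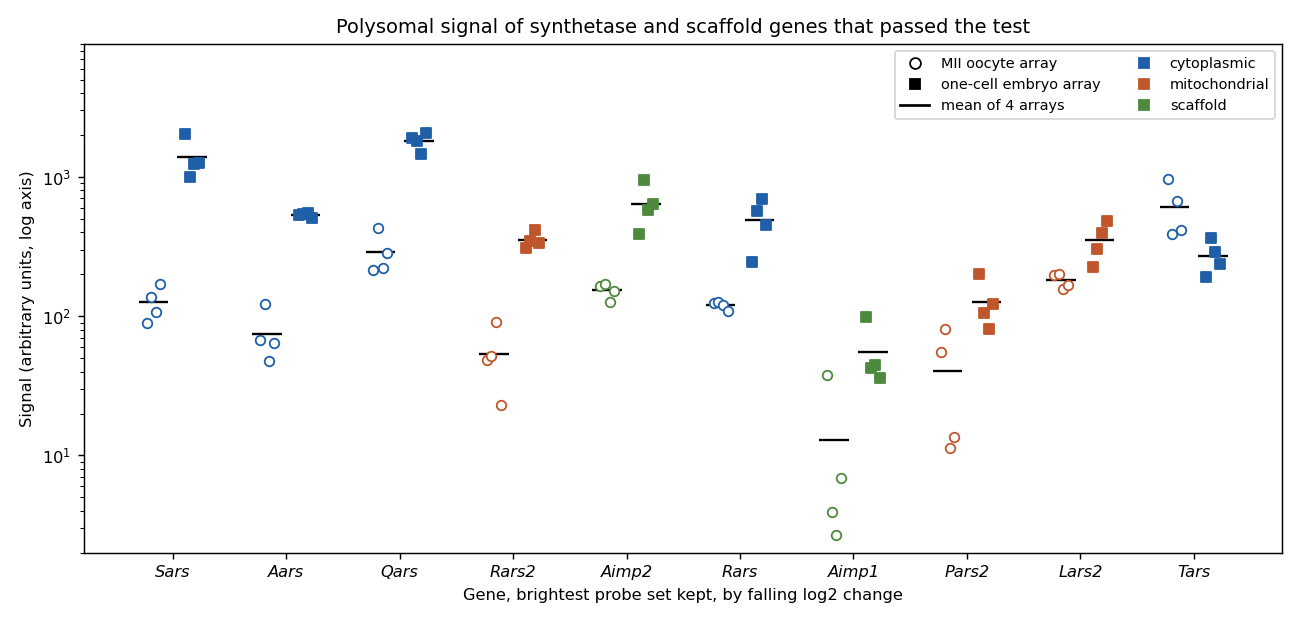
Intensity (log axis, arbitrary units) of the 10 member genes that passed the test, by their brightest probe set, with 1 point per array for 4 MII oocyte (open) and 4 one-cell embryo (filled) arrays and a bar at the mean of each group. The 4 one-cell points of Sars, Aars and Qars lie far above the 4 MII points, those of Tars lie below them, and the groups of Aimp1 overlap at 35.8 and 37.8.

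The other cytoplasmic genes did not pass by their brightest probe set. Gars, for glycine, changed by 0.42 ± 0.34, Nars, for asparagine, by 0.42 ± 0.33, and Cars, for cysteine, by 0.24 ± 0.30. Farsa and Farsb, the 2 subunits of the phenylalanine enzyme, changed by -0.09 ± 0.31 and -0.68 ± 0.37, Wars, for tryptophan, by -0.12 ± 0.29, and Hars, for histidine, by -0.62 ± 0.29. Among these, only Hars had separate groups, at 141.5, 170.7, 262.4 and 220.5 in oocytes and 111.9, 131.7, 121.2 and 127.1 in embryos (limma adjusted p = 0.120). Gars was at 367.6 on one-cell array 1 and at 1031.9, 1062.9 and 823.2 on the other one-cell arrays, against 462.0 to 699.8 in oocytes. Without one-cell array 1 its change was 0.76 (limma adjusted p = 0.0312). After quantile normalization Eprs and Hars fell as well, by 0.88 and 1.09.

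Farsb varied widely between the embryo arrays. Its brightest probe set read 4108.0, 6301.8, 4602.2 and 5786.9 in oocytes and 1703.2, 5375.6, 3070.7 and 3747.6 in embryos, and the groups overlapped. One-cell array 1 was the lowest of the 8 arrays on each of its 3 tested probe sets.

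Of the mitochondrial genes, 3 of 8 tested rose, against 20.1% of all genes, and 0 fell, against 14.7%. Rars2, the arginine enzyme of mitochondria, had signals of 48.1, 51.8, 90.2 and 23.2 on the MII arrays and 306.4, 344.8, 417.9 and 337.3 on the one-cell arrays. All embryo arrays were far above the highest oocyte array. Its change was 2.61 ± 0.34 (limma adjusted p = 2.30e-05). Pars2, for proline, read 55.7, 80.3, 11.3 and 13.6 in oocytes and 199.3, 105.1, 81.0 and 122.6 in embryos. The groups touched, at 80.3 and 81.0, and the change was 1.65 ± 0.47 (limma adjusted p = 0.0130, and 0.0525 without MII array 3 and 0.0526 after quantile normalization). Lars2, for leucine, read 198.2, 200.0, 157.2 and 168.7 in oocytes and 225.0, 302.7, 393.0 and 482.6 in embryos.

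The groups of Lars2 were separate, with a change of 0.87 ± 0.29 (limma adjusted p = 0.0311). Its adjusted p was above 0.05 with any of MII arrays 1, 3 and 4 or one-cell arrays 3 and 4 left out (0.0516 to 0.115), after quantile normalization (0.323), after centring (0.366), without the variance trend (0.0550) and when averaged with its second probe set (0.707). Cars2, for cysteine (0.88 ± 0.36), Sars2, for serine (0.95 ± 0.50), Ears2, for glutamate (0.82 ± 0.45), Fars2, for phenylalanine (-0.53 ± 0.26), and Wars2, for tryptophan (-0.22 ± 0.30), did not pass. Cars2 still had separate groups, at 71.4, 47.3, 62.6 and 66.4 in oocytes and 242.0, 105.8, 104.5 and 79.6 in embryos. Fars2 was separate the other way, at 1168.4, 1153.3, 992.3 and 1278.9 in oocytes and 874.9, 771.7, 722.3 and 783.8 in embryos. One-cell array 1 was the highest one-cell array in 10 of the 13 tested mitochondrial probe sets and the lowest in 3, against 9 and 13 of 31 for the cytoplasmic ones. Without this array the median change was 0.35 for the mitochondrial and 0.46 for the cytoplasmic probe sets, against 0.40 and 0.34 with it. Its part in the mitochondrial values was not tested further.

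**Figure D2:**
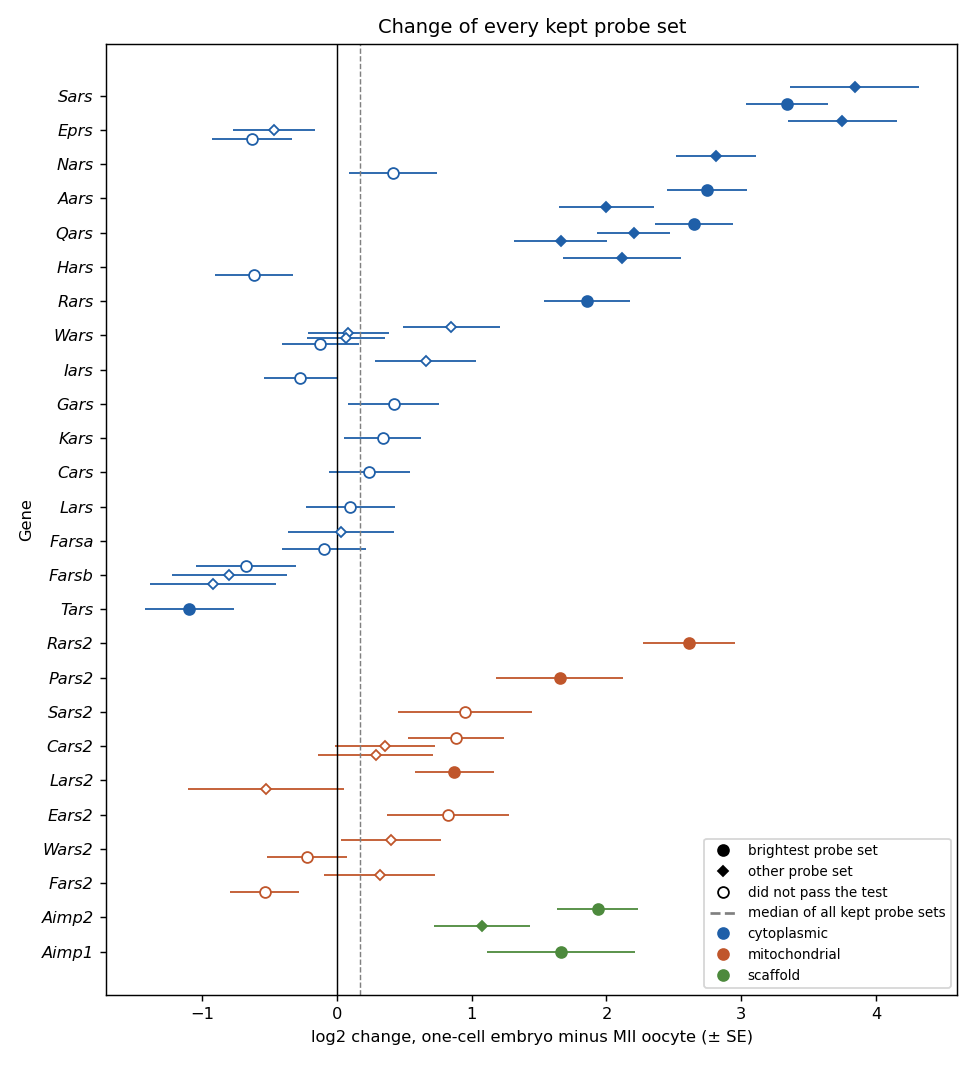
Log2 change (one-cell embryo minus MII oocyte, point with limma SE) of every tested probe set of the 26 member genes. The genes are grouped as cytoplasmic, mitochondrial and scaffold. The brightest probe set of a gene is a circle and others are diamonds, filled where they passed the test. The dashed line is the median of all probe sets tested. The second probe set of Sars lies farthest to the right at 3.84 and Tars farthest to the left at -1.09.

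Counted by probe sets, the cytoplasmic members had 11 rises and 1 fall among 31 tested and a median change of 0.34. The mitochondrial members had 3 rises and 0 falls among 13 and a median of 0.40. Relative to the median of all probe sets tested, these medians were 0.17 and 0.23. They were 0.29 and 0.47 after quantile normalization, 0.43 and 0.32 without one-cell array 1, and 0.34 and 0.19 without MII array 1, so their order turned when either of these arrays was left out. It also turned with an offset of 50 (0.18 and 0.17). The difference between the compartments was not tested as a whole. By gene, 4 of 16 cytoplasmic genes rose (background 20.1%), 1 fell (background 14.7%) and the median was 0.17, while the mitochondrial median was 0.88. These gene medians rest on the brightest probe sets and all arrays, and were not computed in other settings. With probe sets averaged, Lars2 (0.17) and Cars2 (0.51) changed less, while Fars2 (-0.11) and Wars2 (0.088) moved upwards. By the fold of the catalytic domain, 4 of 11 class I genes rose, and 3 of 12 class II genes rose and 1 fell, against the same backgrounds and leaving out the scaffolds and Eprs, which holds both folds.

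The enzymes of both compartments were compared for the same amino acid in 9 pairs, by the difference of log2 signal within each array and a two-sided exact permutation test over the 8 arrays. The standard errors of these differences come from the spread of the within-array differences in each group, not from limma. No pair passed after adjustment over the 9 pairs, and 4 against 4 arrays cannot give p under 0.0286. For serine, the cytoplasmic Sars rose by 2.39 ± 0.39 more than the mitochondrial Sars2 on the log2 scale (exact p = 0.0286, 0.0857 adjusted). The difference lay the other way for leucine, where that of Lars minus Lars2 was -0.77 ± 0.23, and for proline, where Eprs minus Pars2 was -2.28 ± 0.80 (exact p = 0.0286 and 0.0857 adjusted for each). These 3 were the pairs whose differences separated the groups.

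The arginine pair moved in the same direction, and Rars minus Rars2 was -0.76 ± 0.39 (exact p = 0.114, 0.171 adjusted). Glutamate (Eprs minus Ears2) gave -1.45 ± 0.63 and cysteine -0.64 ± 0.34. Tryptophan gave 0.10 ± 0.35, and phenylalanine 0.44 ± 0.26 for Farsa and -0.14 ± 0.41 for Farsb, each against Fars2. The exact p of these lay between 0.0857 and 0.8. The cytoplasmic change was the larger in 3 of the 9 pairs. These differences rest on the choice of probe set. With each gene's probe sets averaged, a comparison added after the data were seen and given without a test, the difference was 2.64 for serine, -0.073 for leucine, -0.77 for proline and 0.061 for glutamate.

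**Figure D3:**
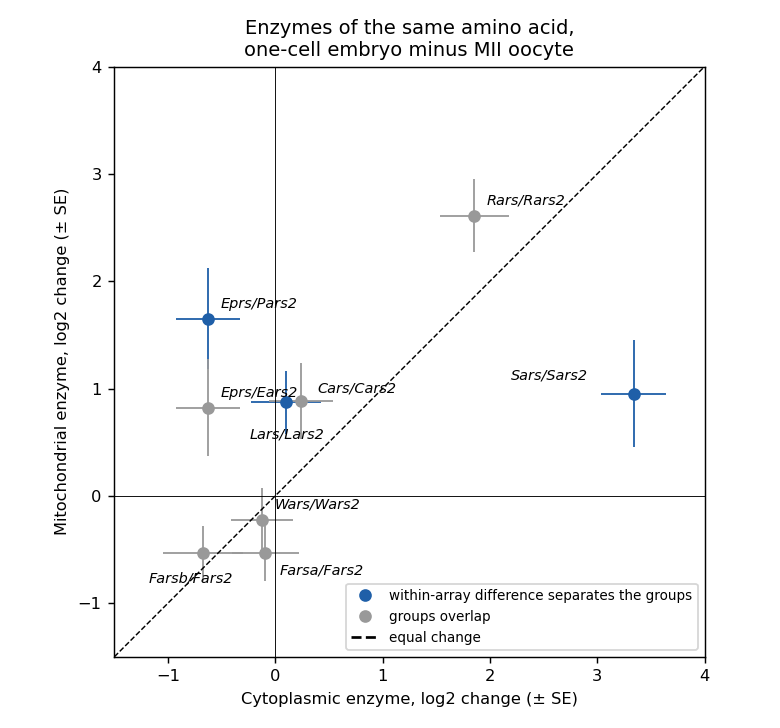
Log2 change of the mitochondrial enzyme (vertical axis, ± SE) against that of the cytoplasmic enzyme for the same amino acid (horizontal axis, ± SE) in 9 pairs, with a dashed line of equal change. Sars/Sars2 lies below the line, Lars/Lars2 and Eprs/Pars2 lie above it, and these 3, in blue, are the pairs whose within-array differences separate the groups.

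Probe sets of 1 gene did not always move together. Of 15 member genes with at least 2 tested probe sets, 4 had probe sets that passed beside others that did not (Eprs, Hars, Nars and Lars2), against 49.3% of all 4787 such genes, and 0 had passes in opposite directions (5.16% of such genes). In 4 genes every tested probe set passed (Sars, Aars, Qars and Aimp2), and in 7 none did. Eprs showed the widest gap. Its probe set 1452157_at read 19.6, 4.7, 13.2 and 54.2 in oocytes and 355.8, 362.5, 486.1 and 303.2 in embryos, with a change of 3.75 ± 0.40 (limma adjusted p = 4.03e-06). That probe set was above the array median on only 1 MII array. The brightest, 1426713_s_at, read 321.7, 354.0, 505.4 and 660.0 in oocytes and 270.3, 211.2, 327.7 and 337.8 in embryos, and overlapped. The remaining one, 1452158_at, changed by -0.47 ± 0.30. All 3 are annotated to the same transcript record, so the annotation gives no isoform that would tell them apart.

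Nars showed the same kind of split on 1 transcript record. Its probe set 1452866_at read 86.7, 108.4, 111.1 and 121.3 in oocytes and 582.3, 686.9, 1292.7 and 814.2 in embryos, a change of 2.81 ± 0.30 (limma adjusted p = 3.44e-06), while its brightest changed by 0.42 ± 0.33. For Hars, 1438510_a_at read 24.3, 57.8, 26.0 and 40.9 in oocytes and 494.7, 95.2, 165.8 and 150.8 in embryos. It rose by 2.12 ± 0.44 (limma adjusted p = 0.00138) where the brightest probe set was lower on all 4 embryo arrays. As means over their probe sets, Nars rose by 1.62 ± 0.26 (limma adjusted p = 0.000273) and Eprs by 0.88 ± 0.28 (0.0228), Hars changed by 0.75 ± 0.28 (0.0516), and the direction of Eprs and Hars thus turned. Counting a gene by any probe set, 12 of the 26 rose, where 26.6% of all genes did by the same count, and Tars fell (17.7% of all genes).

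**Figure D4:**
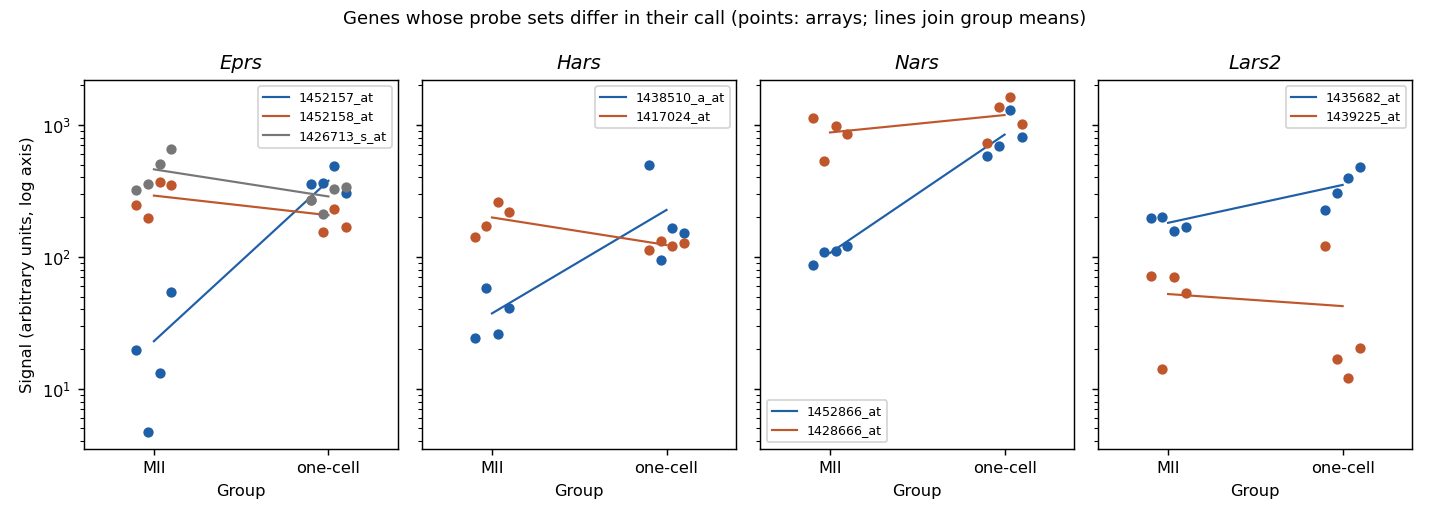
Intensity (log axis, arbitrary units) by array for each tested probe set of Eprs, Hars, Nars and Lars2, in 4 MII oocyte and 4 one-cell embryo arrays, with lines joining the group means. One probe set of Eprs goes from 4.7 to 54.2 in oocytes to 303.2 to 486.1 in embryos, while the others of that gene overlap between the groups.

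The other 28 member probe sets, 9 cytoplasmic and 19 mitochondrial, were too dim for the filter. The methionine, valine and tyrosine enzymes of the cytoplasm (Mars1, Vars and Yars) had no tested probe set. Neither did Aars2, Hars2, Iars2, Mars2, Nars2, Tars2, Vars2 and Yars2 among the mitochondrial ones. The signals of the dim cytoplasmic probe sets lay between 1.8 and 148.3 and those of the dim mitochondrial ones between 0.4 and 181.0. One-cell array 1 gave the highest of the 8 signals in 13 of the 28. In 4 of the 28 the groups did not overlap, with the one-cell arrays higher. The share of such probe sets among all dim ones was not computed.

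The genes with the promoter element did not share a direction. Aars rose, Tars fell, Iars and Gars did not pass and Yars was too dim. The embryos had received α-amanitin, which blocks new mRNA synthesis, so these values cannot show whether the element acted in them. In the list of the amino acid response, drawn from general knowledge of the Gcn2 and Atf4 pathway, 3 of 21 tested genes rose (background 20.1%), 6 fell (background 14.7%) and the median change was -0.04. Atf4 itself read 349.4, 322.7, 338.8 and 448.9 in oocytes and 1468.6, 1971.3, 1597.8 and 1168.4 in embryos. It was higher on all embryo arrays, with a change of 2.04 ± 0.27 (limma adjusted p = 3.01e-05). Ddit3, a stress-induced factor downstream of Atf4, rose by 3.12 ± 0.36, and Slc3a2, the heavy chain of several amino acid transporters, fell by 1.72 on the log2 scale (SE 0.35).

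Genes that act beside the synthetases were read from lists drawn up in the same way, with the same backgrounds of 20.1% of genes higher and 14.7% lower for each list. Of 5 tested genes for delivery of tRNA to the cytoplasmic ribosome and elongation, leaving out Eef1e1, 3 rose and 0 fell. Eef1a1, which carries charged tRNA, rose by 3.13 ± 0.33, its exchange factor subunit Eef1d by 3.11 ± 0.28 and the translocase Eef2 by 2.92 ± 0.27. Another subunit of the exchange factor, Eef1b2, changed by -0.20 ± 0.32 and did not pass. Eef1a1 read 672.4, 466.5, 667.0 and 627.4 in oocytes and 2955.4, 6594.0, 7211.3 and 5865.3 in embryos, with no overlap. Of 6 mitochondrial counterparts, 1 passed as higher and 2 as lower. The higher one, the initiation factor Mtif3, met the filter through the one-cell arrays alone, so the size of its change is not set; it read 3.5 to 9.9 in oocytes, below every median, and 334.7 to 624.3 in embryos. The elongation factors Gfm1 and Tsfm changed by -1.39 ± 0.31 and -1.69 ± 0.45, though neither passed as the mean of its probe sets (limma adjusted p = 0.115 and 0.127).

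In the maturation of tRNA, 9 of 16 tested genes for end processing, splicing and export passed as higher and 2 as lower. Pop1 and Pop5, subunits of RNase P, which trims the 5′ end, rose by 2.11 ± 0.33 and 1.91 ± 0.31. Prorp, the nuclease of the mitochondrial RNase P and also among the 9, met the filter through the one-cell arrays alone, at 5.0 to 13.1 in oocytes, below every median, and 124.1 to 299.0 in embryos. Among genes for editing and synthetase-like proteins 1 of 6 passed as higher and 2 as lower. Tarsl2, a second cytoplasmic threonine enzyme, read 55.5, 79.8, 48.4 and 55.6 in oocytes and 5.3, 3.3, 2.5 and 3.7 in embryos. It met the filter through the MII arrays alone, since its embryo signals were below every median, and the size of its fall is not set. Yrdc, which makes the threonylcarbamoyl group of a tRNA modification, changed by -1.01 ± 0.30 (limma adjusted p = 0.0170, and 0.0503 without one-cell array 3). Ptrhd1 changed by 0.80 ± 0.29 (0.0461), which was above 0.05 after quantile normalization (0.448) and centring (0.308) and with any MII array, or one-cell array 2 or 4, left out (0.0595 to 0.136).

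In the path by which serine on the selenocysteine tRNA becomes selenocysteine, after Sars has charged it, 1 of 7 tested genes passed as higher and 3 as lower. Sepsecs, the enzyme of the last step, read 1433.1, 727.8, 1341.6 and 756.0 in oocytes and 192.5, 459.7, 388.6 and 199.0 in embryos. All embryo arrays were below all oocyte arrays, the opposite of Sars, with a change of -1.78 ± 0.35 (limma adjusted p = 0.000915). Secisbp2l, related to the protein that binds the selenocysteine insertion element, changed by -2.19 ± 0.35. Eefsec, the elongation factor for this tRNA and the gene that passed as higher, met the filter through the one-cell arrays alone, at 1.6 to 22.7 in oocytes, below every median, and 317.9 to 844.7 in embryos. For the mitochondrial glutamine tRNA, which is charged with glutamate and then converted, the subunit Gatc rose by 1.22 ± 0.33 and Gatb changed by 0.04 ± 0.29.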

How the data were processed

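The deposited values are linear intensities, 1 for each probe set on each array. How the authors scanned and scaled them, and any genome build, is not given in the sources used here. Per the labels, RNA came from polysomes of 4 batches per group. From the values, arrays had been scaled to a common trimmed mean, and column medians differed, so quantile normalization had not been applied. Of 45101 probe sets, 64 controls were left out. Gene names came from GEO's platform annotation, with exactly 1 symbol for 34945 probe sets, several for 932 and none for 9160. All 37 member symbols matched RefSeq by gene ID. 

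After an offset of 10 and the filter above, 23336 probe sets (12359 genes) entered lmFit and eBayes with a variance trend (limma 3.58.1, R 4.3.3). The procedure was tested on simulated data. Figures used matplotlib 3.10.9. Every member gene is named by its brightest tested probe set, with array values where it passed. The 3 genes with the smallest p per pathway list are named too. Values of further probe sets, and those of Hars, Gars, Farsb, Cars2, Fars2 and Eef1b2, were chosen after they had been seen. Members and lists were chosen with earlier results of these data known. The number of arrays limits the precision. Same-numbered arrays of the groups did not deviate together (correlations of -0.16, -0.11, 0.14 and 0.04), so the numbers were not taken as pairs. Alternatives covered scaling, offset, filter, variance model, array weights, probe set choice, threshold and each array left out.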

Additional observations from a re-analysis of the deposited data

Results flagged for a closer look

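In 1 of the 52 groups of 4 arrays tested (both groups of the 26 member genes, by brightest probe set), a single array lay far from the rest. For Ears2, the mitochondrial glutamate enzyme, one-cell array 1 had a signal of 219.1, against 47.6, 52.5 and 55.4 on the other one-cell arrays. The gap to the nearest array was 0.908 of the group's range, above Dixon's critical value for 4 samples. Chance gives such a gap in about 5% of groups. One-cell array 1 is also the array with the brightest hybridization controls. Without it the change of Ears2 was 0.35 (limma adjusted p = 0.468), against 0.82 with all arrays. Why this array differed was not tested.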

How the results depend on the processing

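The count of member probe sets that rose was 17 and lay between 13 and 19 over all settings, within 1.5 times of the main count. The count that fell was 1, and it was 3 after quantile normalization, 0 at an adjusted p under 0.01 and 0 to 2 with 1 array left out. By gene, 9 rose and 1 fell, against 6 and 3 after quantile normalization and 6 and 0 at an adjusted p under 0.01. The cytoplasmic median of 0.34 was 0.17 after quantile normalization, 0.024 with each array centred, 0.19 without a filter on dim probe sets, 0.51 with array weights and 0.23 to 0.47 with 1 array left out. The mitochondrial median of 0.40 was 0.083 with centred arrays. Relative to all probe sets tested, both medians were above 0 in each setting except the cytoplasmic one without a filter (-0.0017). Of the named genes' values, 19 changed sign, none of them of a gene that had passed by its brightest probe set. Averaging a gene's probe sets turned Eprs (0.88), Hars (0.75), Iars (0.19), Wars (0.22) and Wars2 (0.088). Quantile normalization turned Cars (-0.24), Iars (0.083) and Gatb (-0.48), centring turned Cars (-0.074), Lars (-0.22) and Gatb (-0.28), and array weights turned Farsa (0.059). With 1 array left out, Farsa ranged from -0.31 to 0.090, Lars from -0.071 to 0.42, Wars from -0.22 to 0.045 and Gatb from -0.093 to 0.19. A further 42 values of named genes no longer passed, 5 passed newly and 820 kept direction and side of the threshold. With the replicate number as a block, 16 member probe sets rose and 1 fell, and the calls of Lars2 (limma adjusted p = 0.0534) and Ptrhd1 (0.0725) were lost. The exact test of the 9 pairs of enzymes can pass only if many pairs separate the groups, so its count of 0 says nothing of stability. With probe sets averaged, a setting added after the data were seen, the glutamate pair turned from -1.45 to 0.061. Precision is limited by 4 arrays per group and by signals near the array median.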

Other observations

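A run of pyrimidines at the start site, a C followed by pyrimidines to a length of at least 5, marks mRNAs of the translation machinery whose use is set by growth signals. It was found in 13 of 61 ribosomal protein genes with a promoter entry (21.3%), in 3.01% of all 27025 genes, and in 1 of the 28 member genes, Wars2. The run was searched only from the annotated start base, so one that began at another base was not counted. The other member genes may therefore hold such a run. No signal was compared with it.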
